A study of Mus musculus with 4 samples.

Results

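The genes described here are 29 that encode enzymes and regulators of sterol and fatty acid synthesis, chosen by name, and all 29 were found among the 28625 gene symbols of the 2 deposited gene matrices. By role, 6 encode steps of the mevalonate pathway, 11 encode later steps from squalene to cholesterol, 4 encode regulators or a sterol carrier, and 8 encode fatty acid steps. Their UMI counts were read in 2 sorts of activated CD4 T cells from the mediastinal lymph node of mice, taken 7 days after intranasal Alternaria alternata extract (10 μg) with the model antigen NP-OVA (25 μg). The Tfh sort came from 3 C57BL/6 mice and was gated on TCRβ, CD4, CD44, PD-1 and CXCR5. The IL-4 reporter sort came from 3 mice of the C57BL/6 4GET strain, in which GFP marks cells that have transcribed Il4, and held activated CD4 T cells positive for that reporter. All sorted cells were then treated with PMA and ionomycin, which activate T cells, for 30 min. No unstimulated cells and no unimmunized mice were analysed here. The labels give neither age nor sex. The sorts differed in strain, 10x chemistry (version 2 against version 3) and sequencing run, so no value was tested between them.

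Cholesterol is built from acetyl-CoA through mevalonate, the isoprenoids, squalene and lanosterol, and the early part of this route also supplies prenyl groups for proteins. Fatty acids start from the same acetyl-CoA, which is carboxylated, extended by fatty acid synthase, elongated and desaturated. Transcription of most of these enzymes is driven by the SREBP factors, which Srebf1 and Srebf2 encode. When sterols are plentiful, the Insig proteins hold SREBP in the endoplasmic reticulum, and Insig1 is itself an SREBP target. Lymphocytes that enter the cell cycle need new membrane and are known to raise this programme.

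Promoter sequence from RefSeq on GRCm38.p6 was on hand for 22 of the 29 genes. A CCAAT box, the site of NF-Y, which acts together with SREBP at many such promoters, was searched as CCAAT on both strands in the 250 bases before each start. It was found in 18 of the 22 genes (81.8%), against 37.5% of 27025 genes and 40.7% of 6966 genes that were tested in 1 or more comparisons. The members without it were Acaca, Acly, Elovl6 and Fads2, all genes of fatty acid steps. Among the fatty acid genes searched only Fasn held it. The core of the sterol regulatory element, searched as CACNCCA, was found in 4 of 22 (18.2%), beside 17.4% of all genes and 17.7% of tested ones. Both stood together in 18.2% of the members, 6.80% of all genes and 7.51% of tested genes. A GC box, searched as GGGCGG, was found in 18 of 22 (81.8%), against 35.4% of all genes and 66.1% of tested genes. CACNCCA can share its last 3 bases with CCAAT, and a match is only a run of letters, not a shown binding site. These spellings were chosen after matches to several others had been seen. The 150 bases before the start are shown for 5 enzymes of the mevalonate and sterol routes whose transcripts differed between cell classes below. Acly and Acaca, which also differed between classes, held neither CCAAT nor CACNCCA and are not shown. Each CCAAT (or ATTGG on the other strand) and the CACNCCA core is in capitals, read 5′ to 3′ on the strand of the gene.
Hmgcs1, chr13:119690201-119690350, plus strand: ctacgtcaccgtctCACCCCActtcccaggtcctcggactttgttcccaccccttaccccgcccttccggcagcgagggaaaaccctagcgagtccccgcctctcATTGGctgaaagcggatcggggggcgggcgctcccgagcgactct
Idi1, chr13:8885456-8885605, plus strand: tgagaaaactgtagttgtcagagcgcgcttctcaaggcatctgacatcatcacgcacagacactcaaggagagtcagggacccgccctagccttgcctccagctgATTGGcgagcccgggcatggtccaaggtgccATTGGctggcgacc
Cyp51, chr5:4104698-4104847, minus strand: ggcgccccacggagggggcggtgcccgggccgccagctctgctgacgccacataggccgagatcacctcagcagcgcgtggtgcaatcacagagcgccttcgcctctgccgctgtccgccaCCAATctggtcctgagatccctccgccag
Ebp, chrX:8193513-8193662, minus strand: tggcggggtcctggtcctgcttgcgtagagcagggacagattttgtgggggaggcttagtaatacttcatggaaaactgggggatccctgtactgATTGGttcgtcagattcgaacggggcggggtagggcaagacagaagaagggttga
Msmo1, chr8:64733579-64733728, minus strand: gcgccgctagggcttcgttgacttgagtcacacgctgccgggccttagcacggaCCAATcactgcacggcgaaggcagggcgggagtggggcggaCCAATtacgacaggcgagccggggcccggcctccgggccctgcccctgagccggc
Within these stretches Idi1 and Msmo1 hold a pair of CCAAT boxes each, Cyp51 and Ebp hold a single one, and Hmgcs1 holds the sterol element core upstream of its box.

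Cells needed 500 genes and at most 10% mitochondrial UMIs, and were given to a mouse when 1 hashtag had 10 or more counts and 3 times the count of the next. This gave 3780 cells in the Tfh sort (1413, 1472 and 895 per mouse) and 3989 in the IL-4 reporter sort (1332, 1144 and 1513). A T cell held 2 or more UMIs of the T-cell receptor and CD3 genes and no Cd79a UMI, and a B cell held 2 or more Cd79a UMIs. T cells numbered 3040 and 3652 and had median depths of 2782 and 6726 UMIs, and B cells numbered 562 and 250 at 2268.5 and 4967.5 UMIs. To compare cells at equal depth, each was thinned to 2000 UMIs in the Tfh sort and 4000 in the reporter sort. Shallower cells were left out, which removed 18.9% and 17.2% of T cells and 35.4% and 26.4% of B cells. Of the assigned cells, 3040 of 3780 and 3652 of 3989 were thus T cells by transcripts, as the sorts' label has it. The T-cell list, which was used to choose them, summed to 9166 and 7390.3 CPM in the T cells (UMIs scaled to a common library total, mean of 3 mice), and the B-cell list to 19.3 and 4.72 CPM. CD8 transcripts were found in 120 and 276 of the T cells. The sorts' barcode lists share 1 barcode. UMIs of each class were summed per mouse and compared with edgeR's quasi-likelihood test with the mouse as a block, and p-values were adjusted over all genes of a comparison. Of 13 such comparisons, those within a sort reuse the same cells, so their calls are not independent of each other. CPM values use the plain total of a sum, the log2 changes use TMM-scaled totals, and neither is divided by gene length, since each UMI counts the 3′ end of 1 transcript.

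In T cells of both sorts the whole set was a small share of the transcriptome, 729.5 ± 4.56 CPM in the Tfh sort and 594 ± 33.1 CPM in the reporter sort (SD, n = 3 mice). A T cell thinned to 2000 UMIs in the Tfh sort held 1.45 to 1.47 UMIs of all 29 genes on average, and 26.4% to 28.7% of cells held none. Among the mevalonate enzymes of the Tfh sort, Hmgcs1, the cytosolic synthase at the entry of the route, was at 55.9 ± 0.413 CPM, and Fdps, which makes farnesyl diphosphate, at 48.6 ± 5.24 CPM. Reporter T cells had these at 25.4 ± 4.71 and 30.9 ± 2.94 CPM, and Pmvk, phosphomevalonate kinase, was at 38.8 ± 1.47 CPM. Ebp, the sterol isomerase, was the sterol enzyme with the most UMIs in T cells of both sorts, at 63.2 ± 5.99 and 92.7 ± 4.92 CPM. Cyp51, the lanosterol demethylase, followed at 51.2 ± 6.73 and 33.0 ± 3.63 CPM, and Sqle, squalene epoxidase, was at 17.7 ± 3.54 and 10.1 ± 4.03 CPM.

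Insig1 stood at 69.2 ± 1.06 CPM in the T cells of the Tfh sort and 25.7 ± 0.572 CPM in those of the reporter sort. Srebf2, which encodes the SREBP of sterol synthesis, had 49.0 ± 4.05 and 35.3 ± 7.34 CPM, and Srebf1, its fatty acid counterpart, 18.8 ± 3.83 and 17.5 ± 1.85 CPM. Acly, which releases acetyl-CoA from citrate, was the fatty acid gene with most UMIs in the Tfh sort, at 101 ± 4.16 CPM, and had 46.2 ± 1.17 CPM in the reporter sort. The desaturase Scd2 showed 21.4 ± 3.24 and 50 ± 9.74 CPM, and its relative Scd1 3.27 ± 2.07 and 0.59 ± 0.203 CPM. Fasn, fatty acid synthase, had 9.68 ± 3.45 and 15.6 ± 3.51 CPM. Fads2 was not seen in the 3023 reporter T cells, which allows at most 0.248 CPM (3 counts). In all, 13 members reached 20 CPM in T cells of the Tfh sort and 11 in the reporter sort, while 6 and 5 were under 5 CPM. Fads1, Fads2, Lss and Scd1 passed the low-count filter in no T-cell comparison of either sort.

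**Figure D1:**
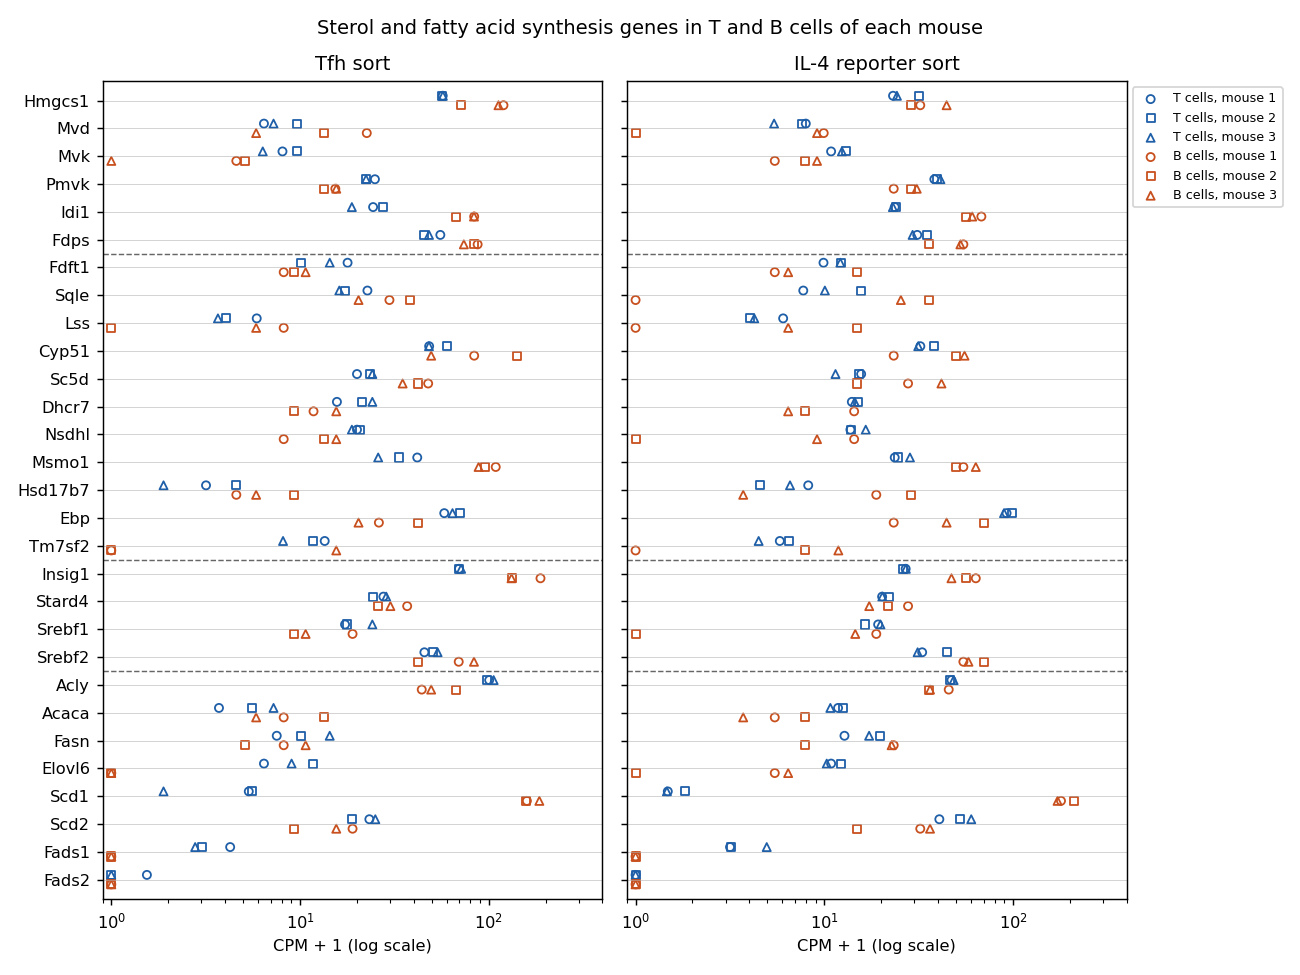
Level of each of the 29 genes at equal depth in T cells (blue) and B cells (orange) of each mouse, as CPM + 1 on a log axis, with marker shapes for mice 1 to 3 and dashed lines between mevalonate, sterol, regulator and fatty acid genes. Points at the left edge are mice with no UMI, and Scd1 has the widest gap between T and B cells, 0.6 against 186 CPM in the reporter sort.

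Cycling T cells carried more transcripts of sterol synthesis than T cells without proliferation transcripts. They were taken as T cells with 2 or more UMIs of Mki67 and Top2a together, against T cells with none. In the reporter sort the 17 mevalonate and sterol genes summed to 509.8 ± 45.3 CPM in cycling cells and 293 ± 21.5 CPM in the others, with no overlap between mice. The 8 fatty acid genes summed to 150.3 ± 22.8 and 128 ± 9.88 CPM, with overlap. Of 22 members tested there, 10 rose and none fell, beside 22.6% of all 8224 genes that rose and 19.9% that fell. The members had a median log2 change of 0.62, and all genes −0.03.

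All 10 were enzymes of the mevalonate and sterol routes except Stard4, a carrier that moves cholesterol between membranes. Fdps had 54.1, 56.7 and 42.4 CPM in cycling cells of mice 1, 2 and 3 and 18.4, 23.0 and 21.8 CPM in the others, a log2 change of 1.23 (SE 0.176, adjusted p = 3.16e-07). Idi1, the isopentenyl diphosphate isomerase, had 47.6, 38.5 and 31.1 against 14.3, 18.1 and 18.4 CPM, a change of 1.15 (SE 0.204, adjusted p = 1.36e-05). Groups did not overlap for either gene. Pmvk, which phosphorylates mevalonate a further time, had 58.4, 56.7 and 47.6 against 28.5, 26.4 and 36.0 CPM and a log2 change of 0.79 (SE 0.163, adjusted p = 0.000139). Hmgcs1 changed least of the 10, with 40.0, 32.7 and 32.0 against 17.1, 30.8 and 20.5 CPM and 0.58 (SE 0.203, adjusted p = 0.0194). For Hmgcs1 mouse 2 was nearly level, and without mouse 1 the log2 change was 0.33 and no longer passed.

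Further down the route, Sqle had 14.1, 25.0 and 14.7 CPM in cycling cells and 4.49, 9.78 and 6.28 CPM in the others, a log2 change of 1.34 (SE 0.299, adjusted p = 0.000355). Cyp51 had 55.2, 64.4 and 46.7 against 22.0, 24.5 and 25.1 CPM and 1.16 (SE 0.167, adjusted p = 3.40e-07). Both were higher in 3 of 3 mice without overlap. The reference alone would not have carried Sqle past the count filter, so its level in cycling cells took part, which favoured a rise. Ebp, the isomerase, had 124, 131 and 121 against 75, 75.3 and 75.4 CPM and a log2 change of 0.70 (SE 0.103, adjusted p = 5.88e-07). Sc5d, a sterol desaturase, had 23.8, 16.3 and 18.2 against 8.97, 14.7 and 7.96 CPM and a log2 change of 0.86 (SE 0.28, adjusted p = 0.0124), and Nsdhl, a sterol dehydrogenase, 22.7, 18.3 and 19.0 against 8.97, 10.8 and 12.6 CPM and 0.84 (SE 0.264, adjusted p = 0.00909). Stard4 had 36.8, 20.2 and 26.8 against 15.9, 18.1 and 15.9 CPM and 0.70 (SE 0.223, adjusted p = 0.0101). Without mouse 1, Sc5d (0.62), Nsdhl (0.65) and Stard4 (0.46) did not pass, and without mouse 3 neither did Hmgcs1 (0.54), Sc5d (0.69) or Stard4 (0.66).

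Neither SREBP gene nor Insig1 passed between cycling and other reporter T cells. Srebf2 had 32.5, 55.8 and 30.3 CPM in cycling cells and 31.4, 42.6 and 32.7 CPM in the rest, with overlap and a log2 change of 0.098 (SE 0.168, adjusted p = 0.676) in edgeR's test. Srebf1 showed −0.039 (SE 0.238, adjusted p = 0.912) and Insig1 0.27 (SE 0.197, adjusted p = 0.283). Among the fatty acid genes, Scd2 had 40.0, 52.9 and 63.1 against 41.2, 53.8 and 51.5 CPM and 0.062 (SE 0.143, adjusted p = 0.761), while Fasn had 13.0, 24.0 and 26.8 against 10.6, 19.1 and 13.0 CPM and 0.56 (SE 0.246, adjusted p = 0.0644). The 12 tested members that did not pass had log2 changes from −0.23 (Dhcr7) to 0.70 (Acaca). Under alternatives, Insig1 passed with classes from thinned UMIs (0.51), and Fasn with all UMIs without thinning (0.83) and without mouse 1 (0.66).

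Cycling cells of the reporter sort were also the deeper ones, with median depths of 15444, 16620 and 17888 UMIs before thinning against 6765, 6331 and 6538, and 34.9% to 53.8% of them held 2 or more Il13 UMIs against 6.37% to 12.3%. Where reference cells were chosen to match the depth of the cycling cells in each mouse, 3 of the 10 passed. These were Cyp51 (0.66), Ebp (0.50) and Stard4 (0.77), while Fdps was at 0.32 and Idi1 at 0.083 on the log2 scale. Myeloid transcripts moved with the class too: 60.6% to 68.5% of cycling cells held 2 or more UMIs of 6 myeloid genes before thinning against 17.6% to 18.3% of the others, and at equal depth the list summed to 162 to 244 against 110 to 136 CPM. In both groups Cst3, a protease inhibitor gene that many cells express, made up most of that sum, and Csf1r was at 0. The other genes of the list were Lyz2, C1qa, C1qb and C1qc. Without cells holding CD8 or 2 or more myeloid UMIs, Cyp51 (1.04), Hmgcs1 (0.83) and Pmvk (0.75) passed. The other 7, among them Ebp (0.40), Fdps (0.73), Idi1 (0.79) and Sqle (0.95), did not. With every cell holding an Il13 UMI left out 6 of the 10 passed, and Hmgcs1 (0.65), Sc5d (0.71), Nsdhl (0.81) and Stard4 (0.32) did not.

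In the Tfh sort 3 of 17 members tested rose in cycling cells and none fell, where 16.7% of 5361 genes rose and 14.7% fell. The share of members that rose was near that over all genes. The mevalonate and sterol genes summed to 566 ± 32.3 CPM in cycling cells and 389 ± 26.4 CPM in the others, and the members' median log2 change was 0.53 beside −0.02 over all genes. Sc5d had 38.5, 55.1 and 48.8 CPM against 17.2, 17.6 and 17.7 CPM, with no overlap and a log2 change of 1.37 (SE 0.342, adjusted p = 0.000834). Sqle had 47.0, 25.7 and 30.5 against 19.3, 13.7 and 10.6 CPM and 1.13 (SE 0.387, adjusted p = 0.0175), again without overlap. Sc5d and Sqle passed the count filter through their level in cycling cells, which favoured a rise. Fdps had 81.2, 88.2 and 42.7 against 52.3, 37.9 and 48.3 CPM and 0.65 (SE 0.249, adjusted p = 0.0363), but mouse 3 was lower in cycling cells. Hmgcs1 showed −0.31 (SE 0.268, adjusted p = 0.416), Insig1 −0.40 (SE 0.249, adjusted p = 0.241), Srebf1 0.66 (SE 0.402, adjusted p = 0.227), Srebf2 0.22 (SE 0.265, adjusted p = 0.594) and Scd2 0.21 (SE 0.411, adjusted p = 0.76). Fasn, with 8.55, 7.35 and 6.10 against 5.51, 9.14 and 16.5 CPM, was under the count filter. Against reference cells of matched depth Sc5d passed (1.12), whereas Sqle was at 0.083 and Fdps at 0.011. Without mouse 1, Fdps (0.68) and Sqle (1.04) did not pass, without mouse 2 Fdps (0.31) and Sc5d (1.22) did not, and without mouse 3 Sqle (1.06) did not. Median depths were 7280 to 7961 UMIs in cycling cells and 2781.5 to 2977.5 in the others. Cells with 2 or more myeloid UMIs made up 24.3% to 29.9% and 4.83% to 5.90%, though the myeloid sums overlapped at equal depth (151 to 316 and 171 to 245 CPM). Without CD8 and myeloid cells Sc5d passed (1.24), Fdps did not (0.69) and Sqle was under the filter, and without Il13 cells Sqle did not pass (0.94).

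**Figure D2:**
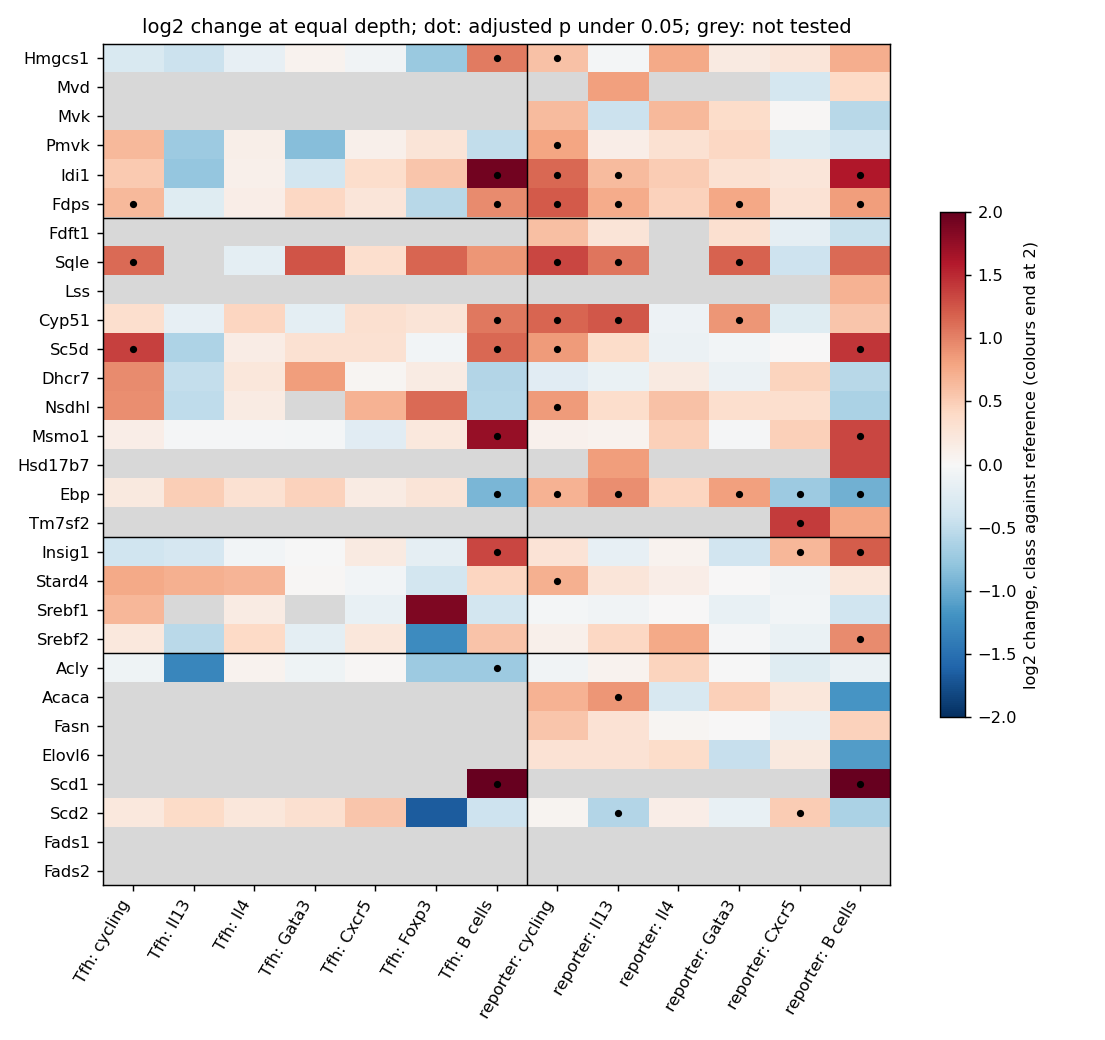
log2 change of each member at equal depth in the 13 comparisons, red where the named class was higher and blue where it was lower, with a dot at an adjusted p under 0.05 (edgeR) and grey where a gene was not tested. Dots stand in the columns for cycling cells and B cells of both sorts and for Il13, Gata3 and Cxcr5 of the reporter sort, and the Tfh columns for Il13, Il4, Gata3, Cxcr5 and Foxp3 hold none.

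T cells of the reporter sort with 2 or more Il13 UMIs, the cytokine of type 2 helper cells, carried more Cyp51, Ebp and Sqle transcripts than T cells with no Il13 UMI, and fewer of the desaturase Scd2. Of 24 members tested, 6 rose and 1 fell, where 21.9% of 8256 genes rose and 20.2% fell. The share of members that rose was thus near that over all genes, and the share that fell was below it. The median log2 change was 0.29 for the members and −0.03 for all genes. The mevalonate and sterol genes summed to 482 ± 48.7 against 323 ± 9.99 CPM, and the fatty acid genes to 137 ± 28 against 137 ± 9.66 CPM.

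Ebp had 141, 161 and 138 CPM in the Il13 class and 76.3, 74.3 and 78.0 CPM in the reference, a log2 change of 0.93 (SE 0.111, adjusted p = 1.34e-07). Cyp51 had 63.6, 66.2 and 46.5 against 22.7, 25.3 and 26.9 CPM and 1.23 (SE 0.171, adjusted p = 1.56e-06). For both genes every mouse of the Il13 class was above every reference value. Sqle had 12.5, 20 and 19.2 against 5.16, 11.8 and 7.34 CPM and 1.07 (SE 0.309, adjusted p = 0.00672), without overlap. Reference cells alone would not have carried Sqle past the count filter, so its level in Il13 cells took part, which favoured a rise. Fdps had 47.7, 49.4 and 35.3 against 26.8, 26.6 and 25.4 CPM and 0.74 (SE 0.177, adjusted p = 0.00132), and Idi1 34.1, 32.6 and 24.0 against 19.3, 19.4 and 20.2 CPM and 0.63 (SE 0.214, adjusted p = 0.0202). Acaca, the acetyl-CoA carboxylase of fatty acid synthesis, had 13.6, 17.9 and 17.6 against 9.28, 8.87 and 7.96 CPM and 0.88 (SE 0.305, adjusted p = 0.0222). Scd2 was the member that fell, with 21.6, 35.7 and 57.7 against 46.8, 58.3 and 60.3 CPM and −0.59 (SE 0.182, adjusted p = 0.0105), and its mouse 3 lay within the reference range. Without mouse 1, Scd2 (−0.39) and Idi1 (0.53) did not pass, and without mouse 2 neither did Scd2 (−0.51), Idi1 (0.57) or Acaca (0.83). Without mouse 3 Acaca (0.75) and Sqle (0.90) did not.

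Hmgcs1 did not pass, with 30.7, 27.3 and 17.6 CPM in the Il13 class against 19.6, 34.6 and 24.2 CPM and a log2 change of −0.039 (SE 0.227, adjusted p = 0.913) in edgeR's test. Insig1 showed −0.16 (SE 0.225, adjusted p = 0.599), Srebf1 −0.074 (SE 0.264, adjusted p = 0.853) and Fasn 0.28 (SE 0.257, adjusted p = 0.4), all with overlapping groups. Srebf2 had 42.0, 50.4 and 40.1 against 29.6, 39.7 and 29.4 CPM, with no overlap, and missed the threshold at 0.41 (SE 0.168, adjusted p = 0.0516). Tested members that did not pass ranged from −0.43 (Mvk) to 0.84 (Hsd17b7). Under alternatives, Srebf2 passed with another scaling (RLE, 0.42), and Insig1 (−0.43) and Fasn (0.63) passed with all UMIs without thinning.

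The Il13 class was deeper (13918, 14282.5 and 19182 UMIs at the median against 6969, 6723 and 6899) and held more cycling cells (51.8% to 64.7% against 14.2% to 19.3%). Against reference cells of matched depth the changes were 0.65 for Ebp, 0.65 for Cyp51 and 0.66 for Sqle, which passed, and 0.12 for Fdps, 0.21 for Idi1, −0.0035 for Acaca and −0.17 for Scd2, which did not. Mvd (1.10) and Hsd17b7 (1.13), 2 further enzymes of these routes, passed there. With cycling cells left out, Cyp51 (1.66) and Ebp (1.05) passed. Sqle (1.21), Idi1 (0.63) and Scd2 (−0.55) did not pass there, at log2 changes near those with all cells, Fdps was at −0.019 and Acaca was under the filter. Myeloid transcripts were also higher, as 70.0% to 75.6% of the Il13 class held 2 or more UMIs of the 6 myeloid genes before thinning, against 17.1% to 20.8% of the reference. At equal depth that list summed to 199.6 to 247 against 98.3 to 131 CPM, of which Cst3 made up 152 to 243 CPM in the Il13 class and 93.5 to 127 CPM in the reference, and Csf1r was at 0 in both. The rest of these sums came from among Lyz2, C1qa, C1qb and C1qc, so Cst3 did not account for all of the list. Without cells holding CD8 or 2 or more myeloid UMIs, Cyp51 (1.28), Ebp (0.90) and Scd2 (−1.04) passed, Fdps (0.067), Idi1 (0.48) and Acaca (0.81) did not, and Sqle was under the filter.

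Reporter T cells were also split by both Il13 and proliferation UMIs, and Fdps differed there from Cyp51 and Ebp in its order of classes. Among cells that were not cycling, Cyp51 had 50.8, 67.5 and 65.8 CPM in mice 1, 2 and 3 with 2 or more Il13 UMIs and 20.1, 17.4 and 22.3 CPM with none. Among cycling cells the values were 74.6, 73.2 and 44.6 and 29.1, 54.5 and 45.9 CPM. The Il13 cells were thus higher in every mouse outside the cycle, while mouse 3 was about level within it. Ebp had 125, 139 and 145 against 67.7, 64.5 and 69.4 CPM outside the cycle and 145, 177 and 136 against 102, 69.3 and 106 CPM within it, higher with Il13 in 3 of 3 mice both times. Fdps was higher in the cycling classes instead: 16.5, 23.0 and 22.3 CPM in cells with neither, 65.5, 39.6 and 31.6 in cycling cells without Il13, 35.2, 11.9 and 6.58 in Il13 cells that were not cycling, and 48.2, 71.4 and 49.5 in cells with both. Idi1 had 14.5, 16.1 and 18.4 CPM in cells with neither, 38.8, 37.1 and 23.7 in cycling cells without Il13, 19.5, 27.8 and 26.3 in Il13 cells outside the cycle, and 50.4, 39.3 and 27.2 in cells with both, so outside the cycle it was higher with Il13 in 3 of 3 mice. Summed over the 6 mevalonate genes, cells with neither had 92.5, 116 and 111 CPM, cycling cells without Il13 233, 205 and 163, Il13 cells outside the cycle 121, 123 and 125 and cells with both 215, 212 and 146 CPM. Outside the cycle that sum too was higher with Il13 in each mouse. Over the 11 sterol genes the same classes had 169, 169 and 173, then 252, 259.9 and 274, then 273, 341 and 336, and last 362, 369.6 and 287 CPM. The split by both markers was not tested, and its smallest class held 38 cells (mouse 3, Il13 without proliferation transcripts). Nor were its classes matched for depth, and cycling cells were the deeper ones. Against reference cells of matched depth, Fdps in cycling reporter cells was at 0.32 and did not pass.

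**Figure D3:**
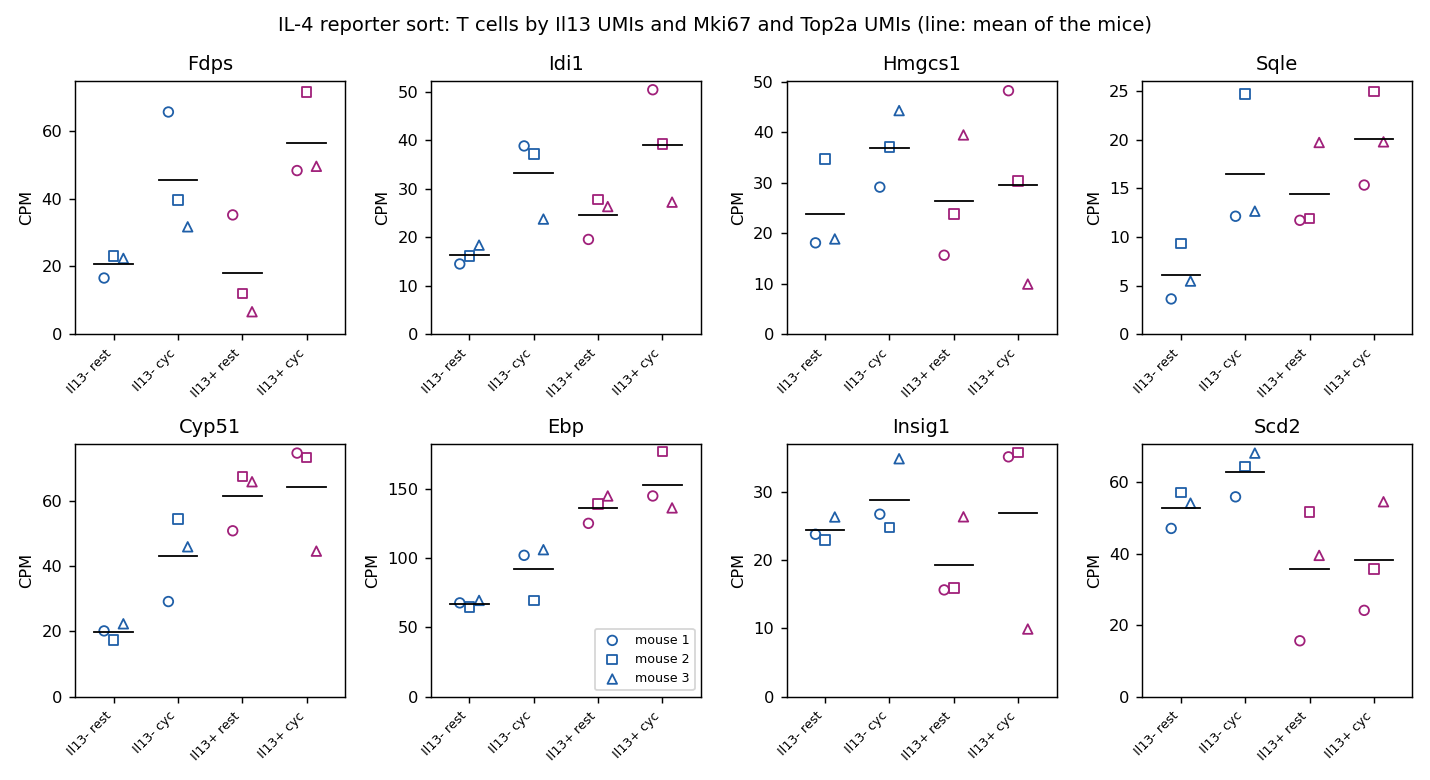
CPM of 8 members in reporter-sort T cells of each mouse, split by Il13 (blue, no UMI; purple, 2 or more) and by Mki67 and Top2a (rest, no UMI; cyc, 2 or more), with lines at the mean of 3 mice and axes from 0. Fdps is higher in the cycling than in the resting classes of every mouse, whereas Cyp51 and Ebp in resting Il13 cells (50.8 to 67.5 and 125 to 145 CPM) lie above resting and cycling cells without Il13 in every mouse.

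Graded by Il13 UMIs, Ebp in the reporter sort had 76.3, 74.3 and 78.0 CPM with none, 92.4, 88.6 and 98.0 with 1, 119, 142 and 139 with 2 to 9 and 150, 169 and 137 with 10 or more. Cyp51 had 22.7, 25.3 and 26.9 CPM, then 21.7, 38.0 and 34.3, then 57.7, 43.9 and 57.4, and 66.1, 76.2 and 36.6 CPM in the top tier. The order held in mice 1 and 2 from 1 UMI upwards, and in mouse 3 Cyp51 was highest at 2 to 9 UMIs, where Ebp was level with the top tier. Median depth was 6723 to 6969 UMIs without Il13, 6439 to 7468.5 with 1 UMI, 10546.5 to 13226 with 2 to 9 and 14805 to 25376 UMIs in the top tier.

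The Il13 class of the Tfh sort was small, with 25, 32 and 11 cells at equal depth. None of the 15 members tested passed there, where 1.85% of 5200 genes passed in either direction, and the median log2 change of the members was −0.44 beside −0.18 for all genes. At an unadjusted p under 0.05 there was 1 (Acly, −1.30), and the share of all genes at this looser threshold is not given here. Each mouse's value rested on few UMIs: Hmgcs1 on 6 UMIs in the class, with 60, 31.2 and 45.5 CPM against 54.2, 55.1 and 56.5 CPM and a log2 change of −0.44 (SE 0.666). Insig1 was at −0.34 (SE 0.567), Srebf2 at −0.53 (SE 0.737) and Scd2 at 0.38 (SE 0.915), while Sqle, Srebf1 and Fasn, with 2, 2 and 1 UMIs in the class, were under the filter. Ebp had 40.0, 125 and 136 against 57.1, 66.4 and 61.2 CPM and 0.49 (SE 0.496). DESeq2 also called none of the members.

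Gata3 encodes the lineage factor of type 2 helper cells, and T cells of the reporter sort with 2 or more Gata3 UMIs had higher Ebp, Cyp51, Fdps and Sqle than those with none. These were 4 of 22 members tested, and no member fell, where 15.9% of 8098 genes rose and 14.6% fell. The share of members that rose was again near that over all genes. The members' median log2 change was 0.09, and that of all genes −0.03. Ebp had 121, 137 and 111 CPM against 73.0, 60.3 and 67.5 CPM and 0.81 (SE 0.119, adjusted p = 2.10e-10). Cyp51 had 42.9, 57.3 and 35.2 against 19.7, 20.9 and 28.1 CPM and 0.89 (SE 0.184, adjusted p = 1.60e-05), and Fdps 36.7, 47.0 and 30.7 against 21.1, 20.9 and 21.2 CPM and 0.78 (SE 0.195, adjusted p = 0.000495). None of these 3 overlapped. Sqle had 10.7, 20 and 13.1 against 1.40, 12.1 and 5.62 CPM and 1.19 (SE 0.33, adjusted p = 0.00194), with mouse 1 of the class inside the reference range, and did not pass without mouse 1 (0.88) or without mouse 3 (1.20). Sqle passed the count filter through its level in Gata3 cells, which favoured a rise.

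Of the regulators, Insig1 had 24.8, 22.6 and 23.9 CPM in the Gata3 class and 31.6, 28.9 and 29.4 CPM in the reference, lower in 3 of 3 mice without overlap, yet it did not pass at −0.38 (SE 0.199, adjusted p = 0.136) in edgeR's test. Srebf1 was at −0.15 (SE 0.247), Srebf2 at −0.023 (SE 0.176), Hmgcs1 at 0.18 (SE 0.208), Scd2 at −0.14 (SE 0.153) and Fasn at 0.011 (SE 0.26) on the log2 scale. With all UMIs without thinning, Insig1 (−0.43) and Fasn (0.43) passed. The Gata3 class held 30.5% to 54.9% cells with 2 or more Il13 UMIs (reference, 2.2% to 3.2%) and 35.9% to 48.7% cycling cells (reference, 10.3% to 12.6%), and was deeper at 9610 to 11650 against 6174.5 to 6487.5 UMIs. Against matched depth Ebp (0.62) and Cyp51 (0.62) passed, and Fdps (0.004) and Sqle (0.77) did not. With classes from thinned UMIs Ebp passed, and Cyp51 (0.34), Fdps (0.067) and Sqle (0.41) did not. Without cycling cells Ebp passed (0.63), and Cyp51 (0.66) and Fdps (0.36) did not. With all cells holding an Il13 UMI left out, Ebp again passed, at 0.49, and Cyp51 (0.62), Fdps (0.70) and Sqle (0.83) did not. Cells with 2 or more myeloid UMIs before thinning made up 47.0% to 58.2% of the Gata3 class and 11.3% to 15.5% of the reference, and the myeloid list summed to 145 to 184 against 126 to 135 CPM at equal depth. Without CD8 and myeloid cells Ebp passed (0.63), Cyp51 (0.49) and Fdps (0.49) did not, and Sqle was under the filter.

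Cxcr5 encodes the receptor that brings follicular helper cells to B-cell follicles. Reporter T cells with a Cxcr5 UMI had lower Ebp and higher Tm7sf2, Insig1 and Scd2 than those with none. Of 24 members 3 rose and 1 fell, where 3.89% of 8551 genes rose and 6.23% fell, and the median log2 change was 0.01 for members and 0.01 for all genes. Ebp had 62.9, 55.2 and 68.2 CPM in the Cxcr5 class and 97.2, 107 and 94.2 CPM in the reference, a log2 change of −0.72 (SE 0.133, adjusted p = 2.14e-05). Insig1 had 40.0, 34.1 and 39.0 against 23.1, 23.2 and 22.5 CPM and 0.66 (SE 0.206, adjusted p = 0.0236). Scd2 had 55.7, 73.1 and 76.8 against 36.5, 46.7 and 54.2 CPM and 0.51 (SE 0.147, adjusted p = 0.0117). Groups did not overlap in any of the 3. Tm7sf2, a sterol reductase, had 11.4, 13.0 and 5.41 against 3.47, 3.97 and 2.96 CPM and 1.40 (SE 0.441, adjusted p = 0.0246), from 21 UMIs in the class. Tm7sf2 passed the count filter through its level in Cxcr5 cells, which favoured a rise.

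Of these 4 genes Ebp alone passed whichever mouse was left out. Without mouse 1, Insig1 (0.63), Scd2 (0.49) and Tm7sf2 (1.27) did not pass, nor did they without mouse 2 (0.71, 0.47 and 1.26), and without mouse 3 Insig1 (0.62) and Scd2 (0.57) did not. Depth was close in these groups, at 7213 to 7802 against 7429.5 to 7565 UMIs, and all 4 passed against matched depth. Il13 cells made up 5.1% to 7.1% of the Cxcr5 class and 16.9% to 30.1% of the reference, and with every Il13 cell left out Ebp passed at −0.49 and Insig1 at 0.76, while Scd2 (0.49) did not. Without cycling cells Ebp passed (−0.53), and Insig1 (0.52) and Scd2 (0.48) did not. Cells with 2 or more myeloid UMIs were fewer in the Cxcr5 class (21.7% to 22.9% against 30.7% to 37.1%), and without CD8 and myeloid cells Ebp (−0.60) and Scd2 (0.55) passed and Insig1 (0.72) did not. Tm7sf2 was under the filter in these 3 settings. Hmgcs1 at 0.24 (SE 0.221), Sqle at −0.42 (SE 0.37), Srebf1 at −0.056 (SE 0.265), Srebf2 at −0.14 (SE 0.196) and Fasn at −0.15 (SE 0.294) did not pass.

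Cells were also split by both genes, which was not tested. Ebp had 128, 144 and 117 CPM in reporter T cells with Gata3 and no Cxcr5 UMI, and 65.1, 46.7 and 60.8 CPM in those with Cxcr5 and no Gata3 UMI. Cells with both had 76.3, 58.8 and 69.4 CPM and cells with neither 75.1, 64.6 and 70.1 CPM, so cells with Gata3 alone were highest in every mouse. Insig1 had 22.8, 23.3 and 22.0 CPM with Gata3 alone, 54.8, 56.7 and 40.5 with Cxcr5 alone, 38.1, 14.7 and 37.0 with both and 25.6, 20.1 and 25.1 with neither, highest with Cxcr5 alone in every mouse. Scd2 had 31.2, 45.9 and 55.7 CPM with Gata3 alone, 71.9, 63.3 and 65.3 with Cxcr5 alone, 50.8, 73.5 and 78.7 with both and 34.5, 48.7 and 51.9 with neither. Its 2 classes with Cxcr5 were above the 2 without it in every mouse.

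No member of the set passed in the Tfh sort for Gata3 (15 tested, 5.9% of 4930 genes passed in either direction) or for Cxcr5 (17 tested, 0.471% of 5734 genes passed). At an unadjusted p under 0.05 there were 2 and 1 members, and the shares of all genes at this looser threshold are not given here. Sqle came nearest, with 42.1, 21.5 and 30.8 CPM in Gata3 cells and 12.7, 13.3 and 11.7 CPM in the reference, without overlap, and a log2 change of 1.26 (SE 0.438, adjusted p = 0.0815) in edgeR's test. Sqle passed the count filter there through its level in Gata3 cells, and against matched depth it was at 0.56. It passed the test at a limit of 1 UMI (1.19) and with all UMIs without thinning (0.89). In the Gata3 comparison Hmgcs1 was at 0.063 (SE 0.275), Insig1 at −0.014 (SE 0.263), Srebf2 at −0.20 (SE 0.329) and Scd2 at 0.32 (SE 0.452). Srebf1, at 18.7, 5.38 and 23.1 against 13.5, 15.4 and 24.8 CPM, and Fasn, at 9.35, 16.1 and 7.69 against 6.37, 8.40 and 17.0 CPM, were under the filter there. Cxcr5 cells of this sort, which was gated on CXCR5 protein throughout, gave −0.064 (SE 0.193) for Hmgcs1, 0.34 (SE 0.33) for Sqle, 0.17 (SE 0.173) for Insig1, −0.15 (SE 0.343) for Srebf1 and 0.22 (SE 0.198) for Srebf2. Scd2 had 25.9, 23.4 and 34.9 against 21.0, 15.1 and 18.7 CPM, without overlap, at 0.56 (SE 0.303, adjusted p = 0.698) in edgeR's test, and Fasn, at 9.96, 9.35 and 16.1 against 5.24, 9.05 and 12.0 CPM, was under the filter. DESeq2 called no member in either comparison.

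T cells with 2 or more Il4 UMIs and no Il13 UMI were compared with T cells with neither, and no member passed in edgeR's test. None of 17 members passed in the Tfh sort, where 3.07% of 5674 genes did, and none of 20 in the reporter sort, where 1.45% of 7296 genes did. At an unadjusted p under 0.05 there were 2 and 3, and DESeq2 called none. The shares of all genes at this looser threshold are not given here. Hmgcs1 in the Tfh sort had 52.7, 54.2 and 61.0 CPM against 57.3, 60.2 and 67.0 CPM, a log2 change of −0.17 (SE 0.202), and Insig1 70.3, 63.5 and 61.0 against 68.0, 65.2 and 67.0 CPM and −0.059 (SE 0.19). Sqle was at −0.19 (SE 0.36), Srebf1 at 0.17 (SE 0.4), Srebf2 at 0.40 (SE 0.215) and Scd2 at 0.23 (SE 0.336), and Fasn, at 9.58, 9.26 and 11.7 against 4.77, 11.3 and 13.4 CPM, was under the filter. Uncalled members of the Tfh sort lay between −0.19 (Sqle) and 0.68 (Stard4).

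Srebf2 in reporter T cells had 42.7, 62.5 and 50 CPM in Il4 cells and 29.2, 40.7 and 24.9 CPM in the reference, higher in 3 of 3 mice without overlap, at 0.76 (SE 0.279, adjusted p = 0.224) in edgeR's test. Hmgcs1 had 24.4, 81.7 and 21.9 against 19.7, 26.4 and 24.5 CPM, where mouse 2 stood apart, and 0.76 (SE 0.339). Insig1 was at 0.075 (SE 0.345), Srebf1 at 0.009 (SE 0.434), Fasn at 0.046 (SE 0.476) and Scd2 at 0.13 (SE 0.245), and Sqle had 5 UMIs in the class and was not tested. The Il4 classes held 41, 52 and 80 cells in this sort and 313, 378 and 213 in the Tfh sort.

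Foxp3, the factor of regulatory T cells, marked 34, 19 and 12 cells of the Tfh sort at equal depth. None of the 17 members tested passed against T cells without a Foxp3 UMI, where 2.66% of 5259 genes did. At an unadjusted p under 0.05 there was 1, and DESeq2 called none. The share of all genes at this looser threshold is not given here. Srebf1 had 103, 26.3 and 41.7 CPM against 13.0, 16.6 and 22.8 CPM, higher in 3 of 3 mice from 9 UMIs, at 1.87 (SE 0.692, adjusted p = 0.167) in edgeR's test. Sqle had 44.1, 52.6 and 41.7 against 20.9, 15.5 and 14.6 CPM and 1.16 (SE 0.785), and Srebf2, from 3 UMIs, −1.27 (SE 0.846). Hmgcs1 was at −0.75 (SE 0.693), Insig1 at −0.18 (SE 0.546) and Scd2, from 1 UMI, at −1.67 (SE 1.37), and Fasn had no UMI in these 65 cells. Cycling cells made up 33.3% to 52.6% of the class and 11.6% to 14.2% of the reference, and the myeloid list summed to between 0 and 1647 CPM in the class (reference, 137 to 244 CPM). The part of these in the values was not tested. Foxp3 cells of the reporter sort numbered 10, 6 and 6 at equal depth and were not compared.

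The sterol genes were also higher in the deepest cells, after thinning and outside the cell cycle. Non-cycling reporter T cells were cut into 4 equally sized depth groups by their UMIs before thinning. The mevalonate and sterol genes summed to 248, 306 and 253 CPM in the shallowest group of mice 1, 2 and 3, 226, 268 and 264 in the next, 265, 272 and 309 in the third and 333, 415 and 376 CPM in the deepest. The shallowest group of the Tfh sort had 335, 341 and 335 CPM and the deepest 506, 448 and 399 CPM. The deepest group was above the shallowest in 3 of 3 mice of both sorts. Fatty acid genes had 127, 157 and 148 CPM in the shallowest and 93.6, 124 and 143 CPM in the deepest group of the reporter sort, lower in each mouse, and 168, 134 and 176 and 173, 163 and 149 CPM in the Tfh sort, with no common direction. Cells that hold more RNA and cells that were captured better cannot be told apart by these counts.

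**Figure D4:**
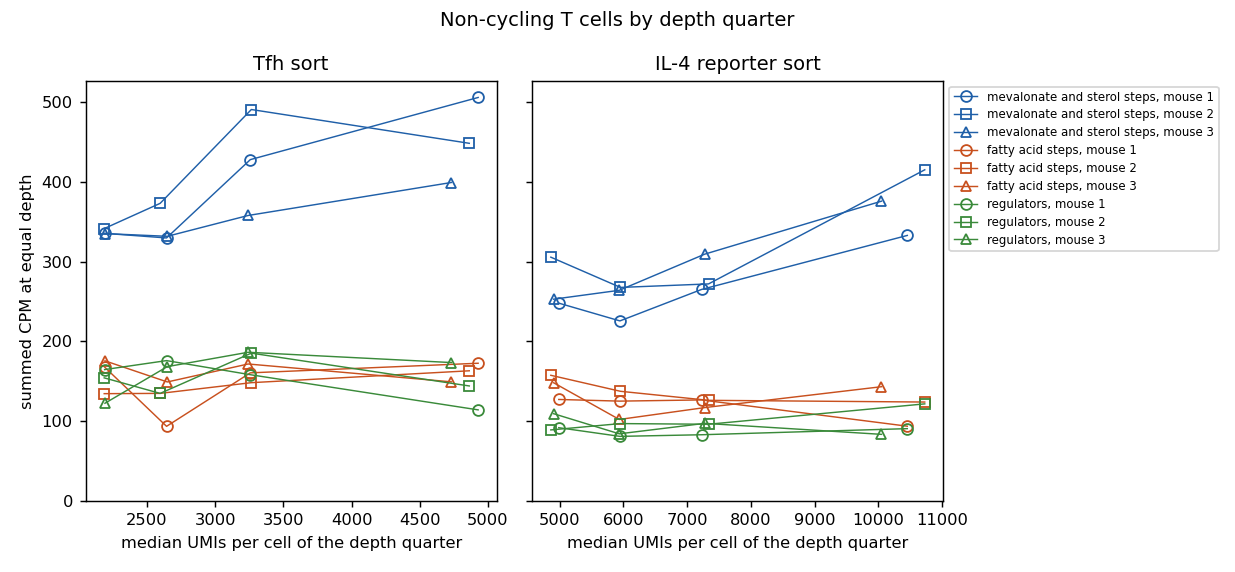
Summed CPM at equal depth in T cells without Mki67 or Top2a UMIs, by depth group of the cells' UMIs before thinning (x axis, median UMIs of the group), for mevalonate and sterol steps (blue), fatty acid steps (orange) and regulators (green), 1 line per mouse. The blue lines end higher than they start in all 6 mice, while the other lines show no such common course over both sorts.

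B cells of both sorts had far more Scd1 than T cells, more Idi1, Msmo1, Insig1, Sc5d and Fdps, and less Ebp. These B cells passed gates meant for T cells: 72.2% of them in the Tfh sort and 86.4% in the reporter sort held a UMI of the T-cell list at equal depth, which summed to 1252 to 2021 and 1062 to 2319 CPM in them. Cd79a was used to choose them, and the whole B-cell list summed to 3839 to 4410.1 and 4674 to 5076 CPM. In the Tfh sort 8 of 18 members tested rose and 2 fell, where 18.9% of 5956 genes rose and 15.3% fell. Reporter B cells gave 7 of 27 that rose and 1 that fell, where 9.62% of 8722 genes rose and 9.41% fell. Scd1 is counted among the higher members of both sorts, though it was tested only through its level in B cells. The members' median log2 changes were 0.73 and 0.45, and those of all genes were near 0 and −0.06.

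Scd1, the desaturase that makes oleate, had 158, 157 and 184 CPM in B cells of the Tfh sort and 4.35, 4.57 and 0.891 CPM in T cells, a log2 change of 5.65 (SE 0.286, adjusted p = 9.09e-84). Reporter B cells had 179, 208 and 171 against 0.481, 0.825 and 0.465 CPM and 8.34 (SE 0.356, adjusted p = 5.21e-117). At equal depth 26.7% and 46.6% of B cells held a Scd1 UMI, beside 0.654% and 0.236% of T cells. Scd1 passed the count filter through its level in B cells, so a difference was bound to follow. Its relative Scd2 had 31.2, 13.9 and 35.3 CPM in B cells and 39.7, 51.2 and 59.1 CPM in T cells of the reporter sort, lower in 3 of 3 mice without overlap, and did not pass at −0.64 (SE 0.342, adjusted p = 0.21). Scd2 in the Tfh sort showed −0.42 (SE 0.478, adjusted p = 0.554) in edgeR's test.

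Of the mevalonate genes, Idi1 had 82.7, 66.1 and 82.5 CPM in B cells of the Tfh sort and 23.4, 26.4 and 17.8 CPM in T cells, a log2 change of 1.94 (SE 0.266, adjusted p = 5.18e-12), and in the reporter sort 67.0, 55.6 and 59.8 against 22.6, 23.1 and 22.1 CPM and 1.60 (SE 0.299, adjusted p = 1.36e-06). No B-cell value overlapped a T-cell value. Fdps rose by 0.94 (SE 0.236, adjusted p = 0.000396) and 0.84 (SE 0.317, adjusted p = 0.044) in the 2 sorts. Hmgcs1 had 119, 70.2 and 112 against 56.0, 55.4 and 56.1 CPM in the Tfh sort and rose by 1.04 (SE 0.22, adjusted p = 1.54e-05), while in the reporter sort it had 31.2, 27.8 and 43.5 against 22.1, 30.8 and 23.3 CPM and did not pass at 0.72 (SE 0.345, adjusted p = 0.142). Msmo1, the methylsterol oxidase, had 108, 95.0 and 87.4 against 40.8, 32.5 and 25.0 CPM and 1.75 (SE 0.239, adjusted p = 3.73e-12) in the Tfh sort, and 53.6, 48.6 and 62.5 against 22.6, 23.7 and 27.4 CPM and 1.33 (SE 0.304, adjusted p = 0.000131) in the reporter sort. Sc5d rose by 1.15 (SE 0.336, adjusted p = 0.00267) and 1.43 (SE 0.41, adjusted p = 0.00413), with overlapping mice in the reporter sort. Cyp51 rose in the Tfh sort by 1.05 (SE 0.226, adjusted p = 2.44e-05), although mouse 3 lay within the T-cell range.

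Ebp went the other way, with 25.2, 41.3 and 19.4 CPM in B cells against 57.1, 69.1 and 63.3 CPM in T cells of the Tfh sort, a log2 change of −0.92 (SE 0.308, adjusted p = 0.0114). Reporter values of Ebp were 22.3, 69.4 and 43.5 against 91.4, 98.2 and 88.6 CPM and −0.95 (SE 0.263, adjusted p = 0.00251). Acly fell in the Tfh sort, with 43.2, 66.1 and 48.5 against 99.6, 97.1 and 105 CPM and −0.73 (SE 0.245, adjusted p = 0.0109). Sqle had 28.8, 37.2 and 19.4 against 21.8, 16.3 and 15.2 CPM at 0.89 (SE 0.391, adjusted p = 0.0642) in the Tfh sort and 1.13 (SE 0.517, adjusted p = 0.119) in the reporter sort, and passed in neither. Fasn was at 0.45 (SE 0.464) in the reporter sort and under the filter in the Tfh sort, at 7.19, 4.13 and 9.71 against 6.53, 9.15 and 13.4 CPM. Elovl6, Fads1 and Fads2 had no UMI in the 363 B cells of the Tfh sort, which allows at most 4.13 CPM each (3 counts).

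Insig1 had 187, 132 and 131 CPM in B cells and 68.6, 68.6 and 70.4 CPM in T cells of the Tfh sort, a log2 change of 1.34 (SE 0.192, adjusted p = 4.15e-11). Reporter B cells had Insig1 at 62.5, 55.6 and 46.2 against 26.0, 25.0 and 26.0 CPM and 1.21 (SE 0.31, adjusted p = 0.000885). Srebf2 rose in the reporter sort, with 53.6, 69.4 and 57.1 against 32.0, 43.7 and 30.2 CPM and 0.95 (SE 0.298, adjusted p = 0.0103), and did not pass in the Tfh sort at 0.58 (SE 0.255, adjusted p = 0.0671). Srebf1 showed −0.36 (SE 0.511) and −0.40 (SE 0.516). Where B cells holding any T-list UMI were left out of the Tfh sort, Scd1 (5.96), Idi1 (2.25), Msmo1 (2.12), Insig1 (1.52) and Cyp51 (1.41) passed, and Fdps (0.15), Sc5d (0.37), Hmgcs1 (0.97), Ebp (−0.93) and Acly (−1.02) did not. In the reporter sort, where fewer than 10 such cells were left in 2 of the 3 mice, leaving out B cells with 2 or more T-list UMIs kept Scd1 (8.52), Idi1 (1.63), Msmo1 (1.70) and Sc5d (1.67) past the threshold but not Insig1 (1.25), Srebf2 (0.89), Fdps (0.66) or Ebp (−1.08), and Scd2 fell past it (−1.93).

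Single mice bore on several of these B-cell calls. In the Tfh sort without mouse 1, Sc5d (0.92), Ebp (−0.91) and Acly (−0.62) did not pass, and without mouse 3 neither did Ebp (−0.75) or Acly (−0.68), while without mouse 2 Srebf2 passed at 0.84. Without mouse 1 of the reporter sort, Ebp (−0.67), Fdps (0.76), Insig1 (1.09) and Srebf2 (0.97) did not pass, and without mouse 3 Fdps (0.67), Sc5d (0.70) and Srebf2 (0.83) did not. Against T cells of matched depth all 10 passed in the Tfh sort, as did Sqle (0.86) and Srebf2 (0.92). In the reporter sort Scd1 (7.04), Idi1 (1.35), Msmo1 (1.16) and Insig1 (0.85) passed, Scd2 fell past the threshold at −0.80, and Srebf2 (0.52), Fdps (0.39), Sc5d (0.80) and Ebp (−0.51) did not pass. Plasma-cell transcripts summed to 917 to 2269.8 CPM in the B cells of the Tfh sort and 194 to 1655 CPM in those of the reporter sort, and their part in these values was not tested.

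**Figure D5:**
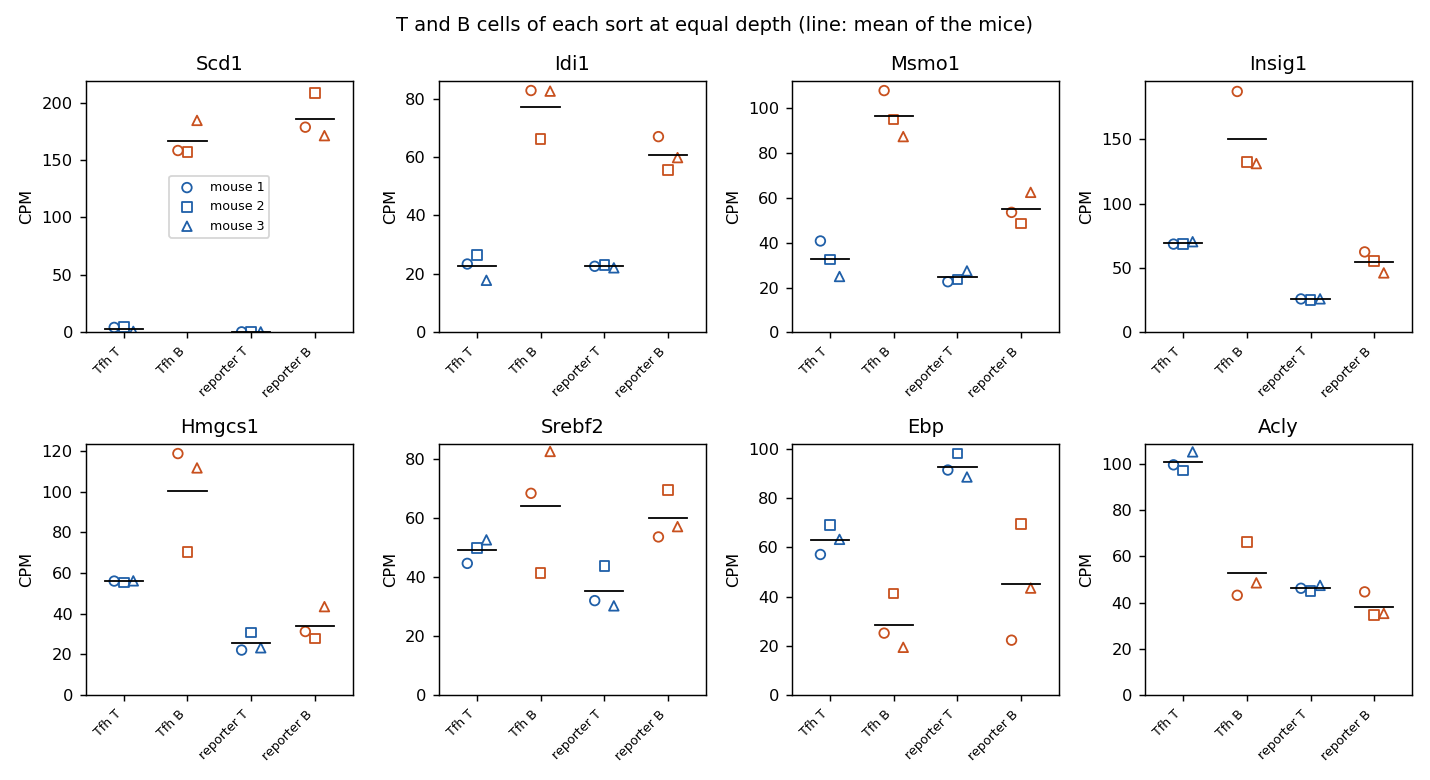
CPM of 8 members at equal depth in T cells (blue) and B cells (orange) of each mouse and sort, with lines at the mean of 3 mice and axes from 0. Scd1 lies between 157 and 208 CPM in every B-cell sum and under 5 CPM in every T-cell sum, and Ebp is lower in B cells.

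A further 35 genes of these pathways were listed beside the members. In cycling reporter T cells 5 of 28 tested rose and 3 fell (22.6% and 19.9% of all genes). In the Il13 class 7 of 28 rose and 2 fell (all genes, 21.9% and 20.2%), and in the Gata3 class 4 of 27 rose and 1 fell (all genes, 15.9% and 14.6%). None of 29 rose and 1 fell in the Cxcr5 class (all genes, 3.89% and 6.23%), and none of 23 passed in Il4 cells (all genes, 1.45%). These shares lay near or below those over all genes. Lbr, a sterol reductase of the nuclear envelope, rose in cycling cells by 0.90 in the reporter sort and 1.42 in the Tfh sort on the log2 scale. Elovl1, an elongase of very long fatty acids, rose by 0.84, 1.04 and 1.19 in the cycling, Il13 and Gata3 classes, and the acyl-CoA synthetase Acsl5 by 0.66, 0.59 and 0.63. Abcg1, an exporter of cholesterol, fell, with log2 changes of −1.08, −1.38 and −0.78 in the same classes.

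Npc2, which carries cholesterol out of lysosomes, fell in Cxcr5 cells of the reporter sort (−0.79), and Mylip in its cycling cells (−1.77). Among the genes that handle SREBP, Mbtps1, the protease that first cuts it, fell in the Il13 class (−0.69), and Insig2 rose in B cells of the Tfh sort (0.67). Among B cells of the reporter sort 2 of 30 tested genes rose, the sterol exporter Abca1 (2.31) and Mylip (1.09), and none fell (all genes, 9.62% and 9.41%). The Tfh sort gave 2 higher and 1 lower of 18 in cycling cells (all genes, 16.7% and 14.7%). In Il4 cells 1 of 18 was higher (Tecr, 0.33), and in Gata3 cells 1 of 17 (Lbr, 0.62). In either direction 3.07% and 5.9% of all genes passed there. None passed among Il13, Cxcr5 and Foxp3 cells (all genes, 1.85%, 0.471% and 2.66%). In B cells 1 was higher and 2 were lower of 20 (all genes, 18.9% and 15.3%).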

How the data were processed

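The authors deposited raw UMI counts for genes and raw tag counts for hashtags, as whole numbers with no normalization. The submitters' processing notes name bcl2fastq in versions 2.20.0.422 and 2.18.0.12, mm10 (GRCm38) and Cell Ranger in version 2.2.0, whereas the matrix header of the IL-4 reporter sort names version 3.0.2, per the file headers. Cells of 2 hashtags were dropped by the rule of 10 or more counts and 3 times the next, which was the only step against doublets. Classes were set on raw UMIs. Thinning used seed 1, and a sum needed 10 cells. Sums per mouse were fitted with edgeR 4.0.16 in R 4.3.3 (TMM, filterByExpr with a minimum count of 10, quasi-likelihood test, Benjamini-Hochberg, threshold 0.05), with the mouse as a block because class and reference cells came from the same animal. The filter asks for its count in as many sums as a group holds. A gene low in the reference could thus be tested through its class alone. DESeq2 1.42.0 was an alternative. Each mouse is a separate animal, but all 3 mice of a sort shared 1 lane. The edgeR script was tested on simulated data. Another scaling (RLE) moved the median of all genes by at most 0.0819 on the log2 scale. Python 3.11.15 with numpy 2.4.6, scipy 1.17.1, pandas 2.3.3 and matplotlib 3.10.9 was used for the rest.

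The members and the lists were chosen with earlier results of these data known. In each comparison values are given for Hmgcs1, Sqle, Insig1, Fasn, Scd2, Srebf1 and Srebf2 and for members past the threshold, up to the 10 with the largest change, and the others by counts and ranges. Members named beyond this rule were chosen after their values were seen. They are Dhcr7, Mvk, Acaca, Hsd17b7 and Stard4 at the ends of ranges, Mvd and Hsd17b7 under an alternative, Acly and Ebp in the Il13 comparison of the Tfh sort, Elovl6, Fads1 and Fads2 at no UMI in B cells, and those named for their levels in T cells. Zero limits use 3 counts and cover counting error only.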

Additional observations from a re-analysis of the deposited data

Results flagged for a closer look

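Idi1 had log2 changes of opposite sign with Il13 in the 2 sorts, and the Tfh value did not pass the test. In the Tfh sort its log2 change was -0.77 (SE 1.12), from 2 UMIs in the Il13 class, with 20, 15.6 and 0 CPM in mice 1, 2 and 3 against 23.1, 25.4 and 17.9 CPM. In the IL-4 reporter sort it was 0.63, with 34.1, 32.6 and 24.0 CPM against 19.3, 19.4 and 20.2 CPM. Every mouse of 1 sort thus lay below its reference and every mouse of the other above it. The difference between the sorts was not tested, since strain, chemistry and run differ between them.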

How the results depend on the processing

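The count of members called depended on the setting in most comparisons. The share of all genes called in each setting is not given beside these counts. Calls over all genes moved between settings too, as given below, so the counts are not read as results about the members. In cycling cells of the Tfh sort (3 called) it was 0 with DESeq2, 1 with no filter on low counts, 8 with all UMIs without thinning, 1 with classes from thinned UMIs, 5 without cells holding an Il13 UMI, 1 against matched depth, and 1 to 3 with a mouse left out. For Gata3 in that sort (0 called) it was 1 at a limit of 1 UMI and 2 with all UMIs, and for Cxcr5 (0 called) 1 with all UMIs. In its B cells (10 called) it was 5 with DESeq2 and 5 without B cells holding a T-cell UMI. In cycling cells of the reporter sort (10 called) it was 5 with DESeq2, 19 with all UMIs, 6 without Il13 cells, 3 without CD8 and myeloid cells and 3 against matched depth. For Il13 there (7 called) it was 2 with DESeq2, 14 with all UMIs, 2 without cycling cells, 3 without CD8 and myeloid cells, and 4 to 5 with a mouse left out. For Gata3 (4 called) it was 1 with DESeq2, 14 with all UMIs, 2 against matched depth, and 1 each with classes from thinned UMIs, without cycling cells, without Il13 cells and without CD8 and myeloid cells. For Cxcr5 (4 called) it was 2 with no replicate block, 2 each with classes from thinned UMIs, without Il13 cells and without CD8 and myeloid cells, and 1 to 2 with a mouse left out. With DESeq2 and without cycling cells it was 1, and there, as without mouse 1 or mouse 2, the balance turned from 3 higher and 1 lower to 0 higher and 1 lower (Ebp). In reporter B cells (8 called) it was 4 with DESeq2, 5 with all UMIs, 5 without B cells holding 2 or more T-cell UMIs, 5 against matched depth, and 4 to 8 with a mouse left out. The cause was not tested. For single genes, Fdps in the reporter Il13 comparison was at -0.019 without cycling cells, and Acaca at -0.0035 against matched depth.

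Over all genes the counts of calls also moved. In the Tfh sort they were 1683 for cycling (658 to 3488 over the alternatives), 96 for Il13 (23 to 288), 174 for Il4 (11 to 312), 291 for Gata3 (27 to 1319), 27 for Cxcr5 (3 to 143), 140 for Foxp3 (40 to 405) and 2032 for B cells (971 to 2757). In the reporter sort they were 3493 for cycling (816 to 6464), 3476 for Il13 (647 to 5954), 106 for Il4 (23 to 348), 2468 for Gata3 (434 to 5313), 866 for Cxcr5 (293 to 1944) and 1660 for B cells (886 to 1672). Leaving out the replicate block (mouse) gave 148 for Il13, 103 for Il4 and 12 for Cxcr5 in the Tfh sort, and 50 for Il4 and 538 for Cxcr5 in the reporter sort.

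The alternatives without Il13 cells and without B cells holding 2 or more T-cell UMIs were chosen after seeing the data. Too few cells were left to run Il13 and Foxp3 in the Tfh sort with classes from thinned UMIs, without cycling cells or without CD8 and myeloid cells, Foxp3 there at 2 UMIs, and reporter B cells without any T-cell UMI. In the Tfh sort 12 members were under the count filter in every T-cell comparison. Lower depth per cell and smaller classes cannot be told apart as limits there.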
